A study of Mus musculus with 4 samples.

Results

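The chaperones and proteases of mitochondrial protein quality control were followed in RNA-seq of embryonic mouse retinas with and without Nrf1. The set was defined by gene name and function, not by a measured value, but earlier results of these data were known when it was chosen. It holds 10 of the 24062 genes in the count table. Its 4 chaperones were Hspd1, Hspe1, Hspa9 and Trap1, and its 6 protease genes were Lonp1, Clpp, Clpx, Yme1l1, Afg3l2 and Spg7. All 10 were present in the table and all 10 were among the 15762 genes with enough reads to be tested. The study asked what Nrf1, a transcription factor that activates nuclear genes for mitochondrial proteins, does in retinal progenitors. It compared 2 libraries of wild type retinas (WT) with 2 libraries of Nrf1-CKO retinas, all from embryos at E13.5 of a mixed C57BL/6 and 129 strain. The Nrf1-CKO retinas carried Nrf1 f/f alleles and Six3-Cre. The paper states that Six3-Cre acts in proliferating retinal progenitors, with loss of the protein shown for the central retina. According to its methods, the recombined allele lacks exon 4 only, and RNA was pooled from 9 pairs of retinas. Each library is therefore an average over many embryos and over every cell type left in the dissected tissue. In such bulk RNA, fewer cells of a type and less RNA per cell cannot be told apart.

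Most mitochondrial proteins are made in the cytosol and threaded unfolded through the mitochondrial membranes, so they have to be folded, and failing that degraded, inside the organelle. Hsp70 and Hsp60 chaperones fold them in the matrix, and ATP-driven proteases in the matrix and the inner membrane remove those that are damaged or left without a partner. When unfolded proteins build up, cells can raise the nuclear genes for these chaperones and proteases, a program known as the mitochondrial unfolded protein response, in which the transcription factors ATF4, ATF5, CHOP and C/EBPβ have been placed.

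The 4 libraries were alike in depth, with 74577660 to 85933945 reads counted on genes, and the least covered value of the set was the 2253 reads of Clpx in WT replicate 2. Nrf1 itself had 9052 and 7789 reads in the WT and 8594 and 8284 in the Nrf1-CKO libraries (log2 fold change -0.034, standard error 0.074, adjusted p = 0.794 by edgeR's quasi-likelihood test). A count over the whole gene says little about the loss of 1 exon, so this gene offers no check of the labels. The tissue did differ between genotypes. The 12 retinal progenitor markers were all expressed, and their summed level was 9730 and 10124 CPM (read counts scaled to a common library size) in the WT against 7844 and 8254 in the Nrf1-CKO libraries. Of the 12, 2 were called lower, Ccnd1 (mean 2658 to 1446 CPM) and Fgf15 (1137 to 701 CPM), which were named after their values were seen, and the median log2 fold change of the list was -0.10, or -0.047 without WT replicate 2. The summed level of 12 retinal ganglion cell markers was 1973 and 2224 CPM against 785 and 602, and 11 of the 12 were called lower. Markers of lens went the other way, from 150 and 420 CPM to 8890 and 3615, with 9 of 10 called higher, as were 10 of 10 macrophage markers. Also called higher were 6 of 8 endothelial, 6 of 7 tested pigment epithelium, 6 of 8 periocular mesenchyme and 3 of 4 tested erythroid markers, and 1 endothelial marker was called lower. Without WT replicate 1 the erythroid count was 1, and without WT replicate 2 the mesenchyme count was 3. In the deposited normalized values they were 0 and 3. The part of these changes in the values below was not tested.

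Per length of principal transcript, Hspa9, Hspe1 and Hspd1, which encode folding chaperones of the matrix, stood at the top of the set. Levels are given as RPKM, reads per kilobase of the principal transcript, scaled to library size as for CPM. Hspa9 had the highest mean over the 4 libraries at 84.9 RPKM, above 96.2% of tested genes with a length. Hspe1 followed at 73.4, Hspd1 at 64.1, Clpp at 53.6, Trap1 at 47.0, Yme1l1 at 40.4 and Lonp1 at 37.5 RPKM. The remaining 3 genes formed a lower tier, Afg3l2 at 16.6, Spg7 at 12.9 and Clpx at 10.5 RPKM. The ranges over the 4 libraries overlapped for 2 pairs of neighbours in this order, Yme1l1 with Lonp1 and Spg7 with Clpx, and for no other pair of neighbours. The order depends on the length used. With all annotated exons as the length, Hspe1 dropped to 38.6 RPKM, below Hspd1 at 58.8, Clpp at 43.1 and Trap1 at 42.3, and Afg3l2 dropped to 5.20 RPKM, the lowest of the set.

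**Figure D1:**
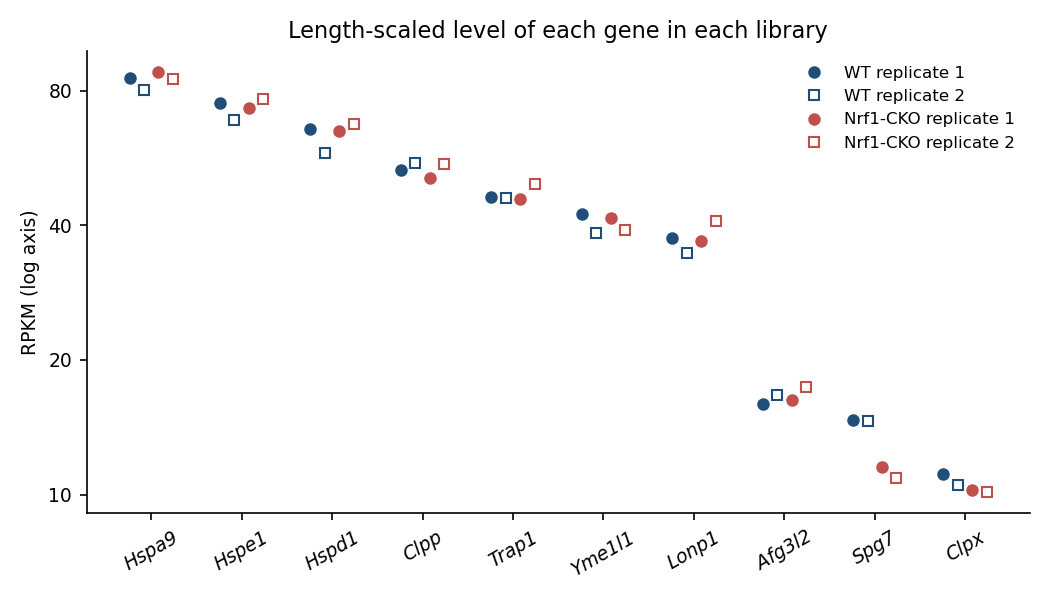
RPKM on a log axis for each of the 10 genes, in order of their mean, with 1 point for each library (blue, WT; red, Nrf1-CKO; filled circles, replicate 1; open squares, replicate 2). The points of the 2 genotypes are intermixed for 8 genes, while those of Nrf1-CKO lie below those of WT for Spg7 and, by a narrow margin, for Clpx.

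None of the 10 genes was called changed. To be called, a gene had to differ by a factor of 1.4 or more and reach an adjusted p of 0.2 or less (edgeR's quasi-likelihood test, Benjamini-Hochberg adjustment over all tested genes). By that rule 0 of the 10 were lower, against 8.04% of all tested genes, and 0 were higher, against 12.8%. DESeq2 and limma on the deposited normalized values also called 0 of the 10. With the fold left aside, 1 of the 10, Spg7, was lower at an adjusted p of at most 0.2, against 19.5% of all tested genes, and 0 were higher, against 20.4%. At an unadjusted p under 0.05 the count was again 1 of 10, against 34.8%. The median log2 fold change was 0.044 for the set and 0.00073 for all tested genes, and its median size without regard to sign was 0.062 against 0.22. The 95% intervals bound what could have been missed. For 9 of the 10 genes the whole interval lay within 1.4-fold in either direction, a position that 46.6% of all tested genes shared. All 10 genes had at least 2253 reads in every library, whereas the tested genes include far less covered ones. Shares and sizes among genes of matched read depth were not computed.

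**Figure D2:**
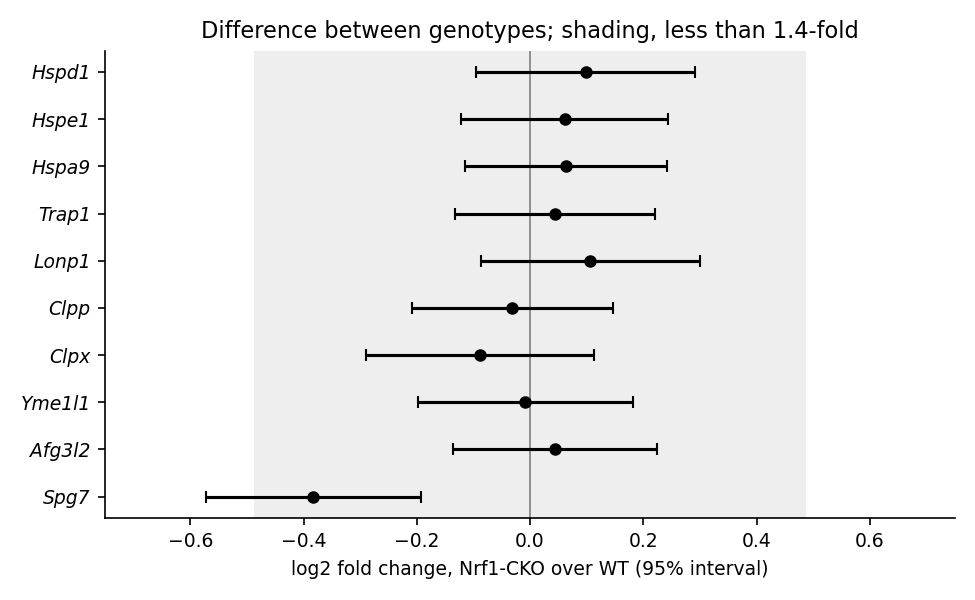
Log2 fold change of Nrf1-CKO over WT for each gene (points) with its 95% interval (bars); grey shading marks differences of less than 1.4-fold. The intervals of 9 genes span 0 and stay inside the shading, and that of Spg7, from -0.57 to -0.19, lies below 0 and crosses the lower edge of the shading.

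Hspd1 encodes the mitochondrial Hsp60 chaperonin, the barrel in which matrix proteins fold, and Hspe1 encodes Hsp10, its lid. Hspd1 stood at 159 and 141 CPM in the WT and 158 and 163 CPM in the Nrf1-CKO libraries. The lowest of these 4 values was a WT library, and the other WT library fell between those of Nrf1-CKO. Its log2 fold change was thus 0.098 (standard error 0.085, 95% interval -0.095 to 0.29, adjusted p = 0.464). Hspe1 had 58.1 and 53.2 CPM in WT and 56.9 and 59.3 CPM in Nrf1-CKO, again with overlap, and its log2 fold change was 0.061 (standard error 0.081, 95% interval -0.12 to 0.24, adjusted p = 0.646). The ratio of Hspe1 to Hspd1 RPKM was 1.14 and 1.18 in WT and 1.13 and 1.14 in Nrf1-CKO, with both Nrf1-CKO libraries below both WT libraries. The log2 difference was -0.039, or -0.065 to -0.012 with each library left out (exact two-sided permutation test, p = 0.333, the smallest that 2 against 2 libraries can give).

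Both genes sit head to head and share a promoter, shown here because it holds a known type of stress element. Hspd1 lies on the minus strand of chromosome 1 (GRCm38) from 55077835 to 55088243 and Hspe1 on the plus strand from 55088132 to 55091307, so that their first exons overlap by 112 bases. Between the inner RefSeq start site of Hspd1, which has 2, and that of Hspe1 lies the stretch chr1:55088053-55088082, printed on the strand of Hspe1 from RefSeq (GRCm38.p6), with each match to TTCNNGAA, a facing pair of the units that heat shock factors bind, in capitals.
Hspd1 and Hspe1: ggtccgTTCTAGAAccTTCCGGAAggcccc
The 2 matches are separated by a pair of bases, and transcripts of Hspd1 from its outer start run through them. TTCNNGAA reads the same on both strands and occurred in 8.52% of 32851 RefSeq windows that run from 250 bases before to 50 bases after a start site. Of the 8 genes of the set with such a window it was found for 3, but Hspd1 and Hspe1 hold the same 2 matches. The other gene is Clpp. TGATGNAA, a core shared by CHOP and ATF4 composite sites, was searched on both strands. It occurred in 3.97% of all windows and in those of 0 of the 8 genes. A match in these letters is not a binding site, and a missing match says nothing about the factor.

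Hspa9 encodes mortalin, the mitochondrial Hsp70 that pulls proteins in through the import channel. It had the most reads of the set, with 261 and 245 CPM in the WT and 269 and 260 CPM in the Nrf1-CKO libraries. A WT library again lay between the Nrf1-CKO libraries (log2 fold change 0.063, standard error 0.079, 95% interval -0.12 to 0.24, adjusted p = 0.628). Trap1 encodes the mitochondrial member of the Hsp90 family. Its WT libraries were almost equal at 107.4 and 107.2 CPM, and the Nrf1-CKO libraries lay on either side of them at 106 and 115 CPM (log2 fold change 0.044, standard error 0.078, 95% interval -0.13 to 0.22, adjusted p = 0.738). The fitted values of all 4 chaperones were thus slightly above 0, with a median of 0.062, and none of them had groups that did not overlap. Hspd1, Hspe1 and Trap1 were below 0 after the correction for GC content and length, and Trap1 also without Nrf1-CKO replicate 2.

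Lonp1 encodes the ATP-driven Lon protease of the matrix, which degrades oxidized and unassembled proteins. It measured 111 and 102 CPM in WT and 109 and 121 CPM in Nrf1-CKO. Only Nrf1-CKO replicate 2 stood above both WT libraries, and the log2 fold change of 0.11, the highest of the set, did not pass the test (standard error 0.085, 95% interval -0.087 to 0.30, adjusted p = 0.427). Clpp encodes the barrel-shaped peptidase of the ClpXP protease, and Clpx the ring that unfolds proteins and feeds them to it. Clpp had 52.3 and 54.2 CPM in WT and 50.2 and 54.0 CPM in Nrf1-CKO (log2 fold change -0.031, standard error 0.078, 95% interval -0.21 to 0.15, adjusted p = 0.824). Clpx had 32.1 and 30.4 CPM in WT and 29.6 and 29.2 CPM in Nrf1-CKO. Its genotypes did not overlap, yet they were separated by less than the gap between the WT libraries, and the log2 fold change of -0.088 did not pass the test (standard error 0.089, 95% interval -0.29 to 0.11, adjusted p = 0.540). The ratio of Clpx to Clpp RPKM was 0.209 and 0.191 in WT and 0.201 and 0.184 in Nrf1-CKO, with overlap (log2 difference -0.055, exact two-sided permutation test, p = 0.667).

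Of the 8 genes with a RefSeq window, which leaves out Hspa9 and Afg3l2, Clpx alone held CGCATGCG, the palindromic core of sites bound by NRF1, the factor removed in these retinas. It lies on the plus strand of chromosome 9 from 65294260 to 65330658. The 100 bases before its start, chr9:65294160-65294259 on the plus strand (RefSeq, GRCm38.p6), are printed with matches to CGCANGCG or its complement CGCNTGCG in capitals.
Clpx: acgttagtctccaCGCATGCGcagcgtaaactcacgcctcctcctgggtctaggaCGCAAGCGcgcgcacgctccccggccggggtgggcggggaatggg
The first match, CGCATGCG, is the palindrome itself, which occurred in 1.87% of the 32851 windows, and the second differs from it at the middle base. The looser pattern, which includes the palindrome, occurred in 8.21% of windows. Of the 8 genes with a window, 3 held it, namely Clpx, Spg7 and Hspd1, and the windows that held it had a GC content of 60.0% to 72.3%.

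The inner membrane carries 2 further ATP-driven proteases that face opposite sides. Yme1l1 encodes the i-AAA protease of the intermembrane space, which processes the fusion protein OPA1. Its values were 200 and 181 CPM in WT and 195 and 184 CPM in Nrf1-CKO, so that both Nrf1-CKO libraries lay between the WT libraries (log2 fold change -0.0082, standard error 0.083, 95% interval -0.20 to 0.18, adjusted p = 0.959). The m-AAA protease faces the matrix and is built from AFG3L2 alone or from AFG3L2 with paraplegin, the product of Spg7. In humans, mutations of both genes cause neurodegeneration. Afg3l2 had 49.3 and 51.7 CPM in WT and 50.3 and 53.9 CPM in Nrf1-CKO, with overlap (log2 fold change 0.044, standard error 0.079, 95% interval -0.14 to 0.22, adjusted p = 0.741). Mice also have another subunit gene, Afg3l1, with 50.0 and 50.1 CPM in WT and 47.4 and 45.7 CPM in Nrf1-CKO, which did not overlap (log2 fold change -0.11, standard error 0.076, adjusted p = 0.365).

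By edgeR's quasi-likelihood test, Spg7 was the 1 gene of the set with a difference past the adjusted p. It stood at 42.5 and 42.2 CPM in the WT and 33.5 and 31.5 CPM in the Nrf1-CKO libraries, from 3718, 3130, 2779 and 2605 reads. The WT libraries were nearly identical and both Nrf1-CKO libraries lay well below them. The mean fell from 42.3 ± 0.180 to 32.5 ± 1.39 CPM (SD, n = 2 per genotype), to 76.7% of WT. On the log2 scale the difference was -0.38 with a standard error of 0.083 and an adjusted p of 0.0108, and its 95% interval from -0.57 to -0.19 reaches past 1.4-fold, so the fold lay under the threshold for a call without being bounded by it. Together with Clpx, Spg7 was 1 of 2 genes of the set whose genotypes did not overlap on the lower side, against 31.6% of all tested genes, and 0 did so on the higher side, against 30.9%. Without any 1 of the libraries the value was -0.43 to -0.34. It was lower in Nrf1-CKO under all 17 alternatives, of which the stricter adjusted p and glmTreat keep the same fold change by construction. Its adjusted p was at most 0.2 in each of them other than glmTreat, which tests against the 1.4-fold itself. Removing the trend with GC content and length gave -0.52 and a call, but the same step lowered the median of all genes to -0.094, and after recentring the value was -0.43 without a call. The ganglion cell markers given above fell in the same libraries, and their part in the value of Spg7 was not tested.

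Spg7 lies on the plus strand of chromosome 8 from 123062942 to 123097760. Within 250 bases before its RefSeq start site at 123065508 there are 2 matches to CGCANGCG, shown in capitals in 30 bases each (plus strand, RefSeq, GRCm38.p6), at chr8:123065395-123065424 and chr8:123065432-123065461.
Spg7 upstream: ggttcggaccgCGCAGGCGtcgccaggagc
Spg7 downstream: cttcaaccccgCGCAAGCGcaaagggaggc
The third match in the window, again CGCAGGCG, spans the start site. Transcripts of Spg7 that start further upstream are annotated, so parts of these stretches can be transcribed.

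The balance of the subunit transcripts of the m-AAA protease was compared within each library. The ratio of Spg7 to Afg3l2 RPKM was 0.919 and 0.872 in WT and 0.711 and 0.624 in Nrf1-CKO. Both Nrf1-CKO libraries had a lower ratio than both WT libraries, by 0.43 on the log2 scale. The exact two-sided permutation test gave p = 0.333, the smallest p that this design allows, so it cannot reach 0.05. The difference was between -0.52 and -0.33 on the log2 scale with each library left out, and -0.37 from the deposited normalized values.

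**Figure D3:**
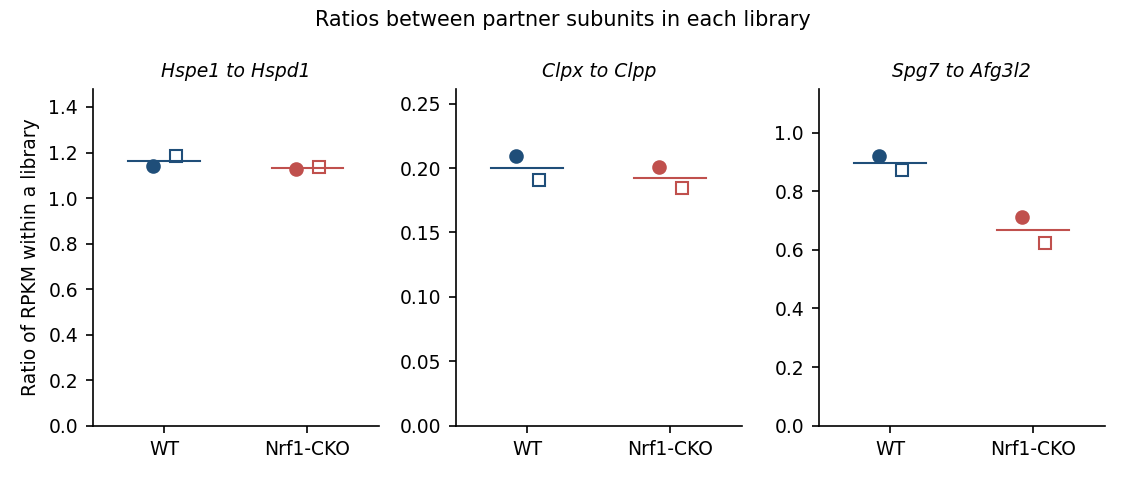
Ratio of RPKM between partner subunits within each library (points as in the plot of levels; horizontal lines, mean of 2 libraries), each panel with its own axis from 0. Hspe1 to Hspd1 stays between 1.13 and 1.18 and Clpx to Clpp between 0.184 and 0.209, while Spg7 to Afg3l2 is 0.872 and 0.919 in WT and 0.624 and 0.711 in Nrf1-CKO.

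Few genes of the wider machinery around the set passed the test. Of 11 other mitochondrial chaperones and assembly factors, 0 were called in either direction, and their median log2 fold change was -0.020, with a sign that depended on the library left out, from -0.075 without Nrf1-CKO replicate 2 to 0.11 without Nrf1-CKO replicate 1. The lowest was Grpel2, a nucleotide exchange factor of mortalin, at -0.15 (adjusted p = 0.250), and the highest was Atpaf1, an assembly factor of ATP synthase, at 0.35 (adjusted p = 0.345). With each library left out Atpaf1 ranged from 0.11 (without WT replicate 1) to 0.64 (without WT replicate 2), where it was called. Clpb, a disaggregase, was the 1 gene of these 11 past the adjusted p, at 0.18 (adjusted p = 0.151), and ranged from 0.10 to 0.26 with each library left out, passing only without Nrf1-CKO replicate 1. Grpel2 ranged from -0.21 to -0.066. Of 17 other mitochondrial proteases and prohibitin-type scaffold proteins, 0 were called, and their median was 0.045. After the correction for GC content and length 2 were called lower, and without Nrf1-CKO replicate 2 the count was 1 and the median -0.0061. Their range ran from -0.45 for Immp2l, an inner membrane peptidase with 112 to 169 reads in each library (adjusted p = 0.354), to 0.28 for Lactb, a serine protease of the intermembrane space (adjusted p = 0.131). Immp2l was at -0.25 without WT replicate 2 and at -0.62 without WT replicate 1. Besides Lactb, 2 of the 17 passed the adjusted p alone. Htra2, a serine protease of the intermembrane space, was higher by 0.22 (adjusted p = 0.128), and Nln, a metallopeptidase, fell by 0.25 on the log2 scale (adjusted p = 0.0795). Lactb no longer passed without any 1 of the libraries, Htra2 passed only without WT replicate 2 and Nln only without Nrf1-CKO replicate 1. Clpb, Htra2 and Nln were chosen for mention after their values were seen. By edgeR, 0 of the 11 and 3 of the 17 had an unadjusted p under 0.05, against 34.8% of all tested genes, of which 8.04% were called lower and 12.8% higher.

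The regulators that have been placed upstream of mitochondrial and other stress programs were then examined. Of 5 such genes, 3 were called higher, against 12.8% of all tested genes, and 5 had Nrf1-CKO libraries that were both above both WT libraries, against 30.9%. Atf5 rose from 22.4 and 25.8 CPM to 33.7 and 45.2 CPM (log2 fold change 0.71, standard error 0.14, adjusted p = 0.00706). Ddit3, which encodes CHOP, rose from 7.33 and 7.20 CPM to 10.8 and 13.6 CPM (0.75, standard error 0.15, adjusted p = 0.00759). Without Nrf1-CKO replicate 2 the value of Atf5 was 0.484, just under the fold for a call, and that of Ddit3 in the deposited normalized values was 0.48. Cebpb was called at 1.26 (standard error 0.48, adjusted p = 0.0937), but from 31, 56, 114 and 105 reads, and the call was lost in 6 of 17 alternatives. It stood at 0.81 with an adjusted p of 0.316 without WT replicate 1, at 1.20 with 0.222 without Nrf1-CKO replicate 1, at 1.90 without WT replicate 2, and at 0.32, its lowest, in the deposited normalized values. Atf4, at 0.19 (adjusted p = 0.141), and Hsf1, the heat shock factor, at 0.23 (adjusted p = 0.0765), passed the adjusted p without the fold. With library size as the only scaling Atf4 did not pass (0.17). After the correction for GC content and length neither gene did (0.039 for Atf4 and 0.11 for Hsf1). Atf4 no longer passed it without WT replicate 1, WT replicate 2 or Nrf1-CKO replicate 2, where it was at 0.11, and Hsf1 no longer without WT replicate 1 or Nrf1-CKO replicate 2. Over the same libraries, Hspd1, Hspe1, Lonp1 and Clpp, genes of the set used as readouts of this response, had the values of 0.098, 0.061, 0.11 and -0.031 given above. With each library left out they ranged from 0.015 to 0.20 for Hspd1 and from 0.0026 to 0.13 for Hspe1. The ranges were 0.030 to 0.18 for Lonp1 and -0.087 to 0.022 for Clpp. Macrophage markers, summed at 86.4 and 81.9 CPM in WT and 258 and 317 CPM in Nrf1-CKO, rose in the same libraries as Cebpb, and their part was not tested.

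**Figure D4:**
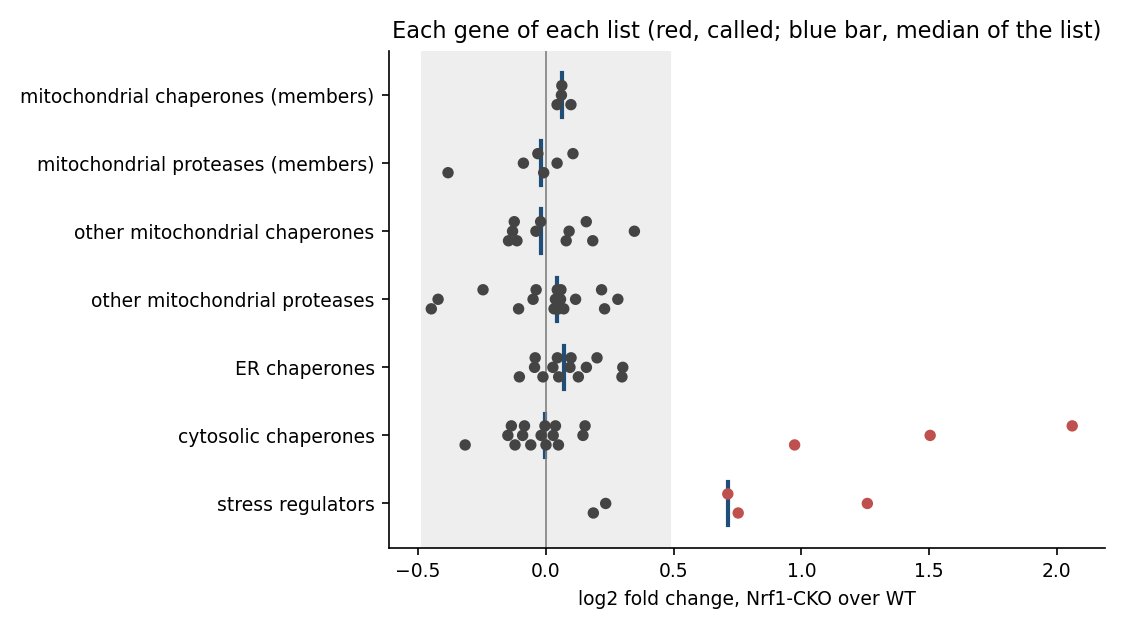
Log2 fold change of Nrf1-CKO over WT for every gene of 7 lists (1 point per gene, spread vertically for legibility; red, called; blue bar, median of the list; grey shading, less than 1.4-fold). All points of the first 5 lists lie in the shading, whereas 3 of 18 cytosolic chaperones and 3 of 5 stress regulators lie to its right.

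Chaperones of other compartments include close relatives of the set. In the endoplasmic reticulum 0 of 14 chaperones were called, or 1 without WT replicate 1, with a median log2 fold change of 0.073. Hspa5, the Hsp70 there, was at 0.099 (adjusted p = 0.419), beside the 0.063 of its mitochondrial relative Hspa9, and Hsp90b1, the Hsp90 there, was at 0.045 (adjusted p = 0.772), beside the 0.044 of Trap1. The range of this list ran from -0.10 for Manf (adjusted p = 0.448) to 0.30 for Dnajc3 (adjusted p = 0.0304, or 0.220 without WT replicate 2), whose fold was under the threshold. Among 18 cytosolic chaperones the median was -0.0012 and 3 genes, all with few reads in WT, were called higher, or 16.7% against 12.8% of all tested genes. Hspb1, a small heat shock protein, had 28 and 20 reads in WT and 107 and 98 in Nrf1-CKO (log2 fold change 2.06, standard error 0.46, adjusted p = 0.0118), but was at 0.43, under the fold for a call, in the deposited normalized values. The stress-inducible Hspa1a and Hspa1b, named here after their values were seen, rose by 1.50 and 0.97 (adjusted p = 0.00070 and 0.0332), and since these copies are nearly identical the split of reads between them is uncertain. Without WT replicate 1 the value of Hspa1b was 0.62, and in the deposited normalized values Hspa1a was at 0.81 and Hspa1b at 0.51, both still called. None of the abundant cytosolic relatives was called. Hspa8 was at -0.12 (adjusted p = 0.350), Hsp90ab1 at 0.049 (adjusted p = 0.712), and Hsp90aa1, the lowest of the list, fell by 0.32 on the log2 scale (adjusted p = 0.0284, or 0.208 without WT replicate 1), also under the fold.

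Several counts carry a limit from how reads are assigned. The annotation names 5 pseudogenes of Hspd1, 6 of Hspe1 and 1 of Hspa9, and 0 of these 12 had a row in the table. Reads that match a gene and such a copy equally well are not unique and were not counted, so the levels of these 3 genes are uncertain. Whether the share lost was equal in both genotypes was not tested. Hspd1 and Hspe1 share 112 exonic bases on opposite strands, and Trap1 (chromosome 16, 4039971 to 4077827, minus strand) shares 54 with Dnase1. The body of Spg7 lies within a longer gene model on its own strand, Gm20388, that shares no exon bases with it and had no row. The other genes lie at 56614297 to 56626887 (Lonp1, minus strand) and 56990305 to 56996188 (Clpp, plus strand) on chromosome 17, and at 23156369 to 23199260 on chromosome 2 (Yme1l1, plus strand). Hspa9 and Afg3l2 are both on chromosome 18.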

How the data were processed

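Total RNA of E13.5 retinas was sequenced in 2 WT and 2 Nrf1-CKO libraries. The authors aligned reads to mm10 with TopHat2 (version 2.7.2 in the submitters' processing notes) and deposited raw counts per gene from HTSeq. The annotation release is not given in the sources used here. A second deposited table holds normalized values on a log2 scale, whose method is not stated; the notes also name DESeq and limma. Header cells of both tables are offset by blanks, so names were taken in their order with the blanks left out, and each name matches the genotype and replicate of 1 library. The 5 summary rows of HTSeq, 74.0% to 75.0% of entries (54.6% to 58.0% non-unique alignments), were left out.

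Genes passing filterByExpr (minimum count 10) were scaled with TMM factors (0.992 to 1.02) and compared by quasi-likelihood testing (edgeR 4.0.16, R 4.3.3), with genotype as the only term. The biological coefficient of variation was 12.0%. The code was checked on simulated data. CPM and RPKM use the TMM-scaled library sizes, and lengths and coordinates come from GENCODE vM21 (GRCm38). Alternatives were DESeq2 1.42.0, limma 3.58.1 on the deposited log2 values, glmTreat, other scalings, filters and thresholds, the replicate number as a block, a correction for GC content and length (loess span 0.3), and each library left out in turn. Recentring that correction was added after the data were seen. Nothing in the labels describes separate litters, so p-values measure the spread between 2 pools per genotype, which may be technical, and reads are not independent molecules.

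The genes, lists and tests were chosen with earlier results of these data known. Named were the 10 genes, all 5 regulators, fixed relatives, and the called, lowest and highest genes of the other chaperone and protease lists. Clpb, Htra2, Nln, Hspa1a, Hspa1b, Ccnd1 and Fgf15 were named after their values were seen.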

Additional observations from a re-analysis of the deposited data

How the results depend on the processing

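Under 17 alternatives the 10 genes gave 0 calls in either direction, except that 1, Spg7 at -0.52, was called lower after the GC content and length correction, which also moved the median of the set to -0.074 and gave -0.031 for Hspd1, -0.081 for Hspe1, -0.090 for Trap1, -0.048 for Lonp1, -0.074 for Hsp90ab1 and -0.017 for Hsp90b1. That correction also put Clpp at -0.21 and Clpx at -0.17, past the adjusted p without the fold. With Spg7, 3 of the 10 genes passed the adjusted p there, against 1 after recentring. The correction lowered the median of all genes to -0.094 and split the calls into 1736 lower and 1726 higher, against 1268 and 2024. Recentred, it gave 1317 and 1975 and changed the sign of Yme1l1 (0.028) and Nrf1 (0.043). Upper-quartile scaling changed the sign of Clpp (0.0086), Yme1l1 (0.031) and Nrf1 (0.0060). Fewer genes were called lower and higher by glmTreat (743 and 1188), which tests against the fold itself, and by limma on the deposited values (723 and 945), where the cause was not tested. With each library left out, the median of the set was 0.0087 to 0.065, genes called lower were 1071 to 1402 and higher 1703 to 1856, and the log2 difference of the Clpx to Clpp ratio was -0.12 to 0.010. Values near 0 then crossed it, with ranges of -0.074 to 0.068 for Yme1l1, -0.087 to 0.022 for Clpp, -0.016 to 0.10 for Trap1, -0.0090 to 0.095 for Afg3l2, -0.045 to 0.13 for Hsp90b1, -0.0098 to 0.11 for Hsp90ab1 and -0.19 to 1.2e-05 for Manf. Replicate numbers are shared by the genotypes, but same-numbered libraries did not deviate together (correlation -0.0042), and with the replicate number as a block 0 of the 10 genes were called, the median was 0.043 and 1256 and 1970 genes were called lower and higher. The 95% intervals rest on 2 libraries per genotype and on TMM scaling, so they do not bound every difference that could have been missed.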
